A study of Mus musculus with 6 samples.

Results

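The genes described here are the dual-specificity phosphatases (Dusp), the Sprouty proteins (Spry) and the Sprouty-related Spred proteins, families that include the main feedback brakes on mitogen-activated protein kinase (MAPK) signalling. The set takes in every gene with the symbol Dusp and a number, Spry with 1 to 4 or Spred with 1 to 3, which gave 28 of the 26106 genes in the deposited table. Expression was measured by mRNA sequencing in wild-type bone marrow-derived macrophages, the precursors of osteoclasts, taken from male C57BL/6 mice aged 6 weeks. All cells received RANKL at 100 ng/mL and M-CSF at 30 ng/mL in medium with 10% serum for 2 days, so the Ctrl cells (n = 3) were themselves being driven to osteoclasts, and the ZM cells (n = 3) had 10 μM ZM in addition. ZM-306416, named in the title of the series, is a kinase inhibitor known for its action on VEGF receptors. No vehicle for the Ctrl cultures was named in the labels. Whether replicates are independent mice or dishes is also unsaid, so p-values cover only the variation among these libraries, possibly technical.

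M-CSF and RANKL both activate the MAPKs, a family that comprises ERK, p38 and JNK and that is switched on when a kinase phosphorylates a threonine and a tyrosine in the MAPK activation loop. Dual-specificity phosphatases remove both phosphates, and many of their genes are transcribed in answer to the pathway that they switch off, which closes a negative feedback loop. Sprouty and Spred proteins act further upstream, between receptor tyrosine kinases, Ras and Raf. Transcript levels of such feedback genes are often read as a record of recent pathway activity, but kinase activity itself was not measured here.

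Total counts ranged from 45512004 to 54256377 per library. Levels are in CPM, counts scaled to the size of the library. Replicates were less alike in ZM than in Ctrl, with 0.9675 and 0.9922 as the lowest correlation of log2 CPM over genes (Pearson's r). ZM replicate 3 lay farthest from the Ctrl mean for 66.9% of all genes tested and for 19 of the 25 tested members (76.0%). Osteoclast markers were called lower in 10 of 10 cases, with a summed level of 4983 to 5291 CPM in Ctrl and 557.8 to 970.7 CPM in ZM, the lowest in ZM replicate 3, and Ctsk, which encodes the protease cathepsin K, fell from 1009 ± 51.7 to 123 ± 36.2 CPM. Macrophage markers were called higher in 5 of 8 cases, and their sum was 3258 to 3461 CPM in Ctrl and 4001 to 5714 CPM in ZM. Markers of other cells were scarce, with sums of 14.7 to 22.2 CPM for stromal cells or osteoblasts and at most 9.01 CPM for neutrophils, B cells, T or NK cells, mast cells or basophils and erythroid cells. The endothelial sum of 92.4 to 98.6 CPM in Ctrl and 39.3 to 50.3 CPM in ZM came nearly all from Kdr and Vwf, while Pecam1, Cdh5, Tek, Emcn and Egfl7 were each under 1 CPM in the mean of either group. In such bulk RNA, fewer cells of a type and less RNA per cell cannot be told apart, and the part of this shift away from osteoclast transcripts in the results below was not tested.

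Of the 28 genes, 25 had enough counts to be tested, 3 rose with ZM, 3 fell and 19 were not called. The risen genes were Dusp6, Dusp1 and Dusp23, and the fallen genes were Dusp9, Spry1 and Dusp19. A gene was called where its adjusted p from edgeR, corrected over all 15590 genes tested, was under 0.05. By the same rule 11.0% of all genes tested were called, of which 863 rose (5.54%) and 848 fell (5.44%), against 24.0% of the tested members. Among the called members, Spry1 had enough counts to be tested only through its Ctrl libraries, and Dusp19 had an edgeR adjusted p of 0.0498. Those 863 and 848 became 1413 and 850 when each library's trend with gene length was removed, while the members stayed at 3 and 3. The median log2 fold was -0.21 over the tested members and 0.003 over all genes tested. Groups did not overlap for 15 of the 25 tested members, 6 with ZM higher and 9 with ZM lower, and for 42.9% of all genes tested. The number of called members changed with the libraries used: 1, 1 and 0 members were called without Ctrl replicates 1, 2 and 3, and 4, 12 and 8 without ZM replicates 1, 2 and 3. Calls over all genes tested moved the same way, from 1711 to 180, 224 and 148 without Ctrl replicates 1, 2 and 3. Without ZM replicates 1, 2 and 3 they went to 669, 5023 and 3120.

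**Figure D1:**
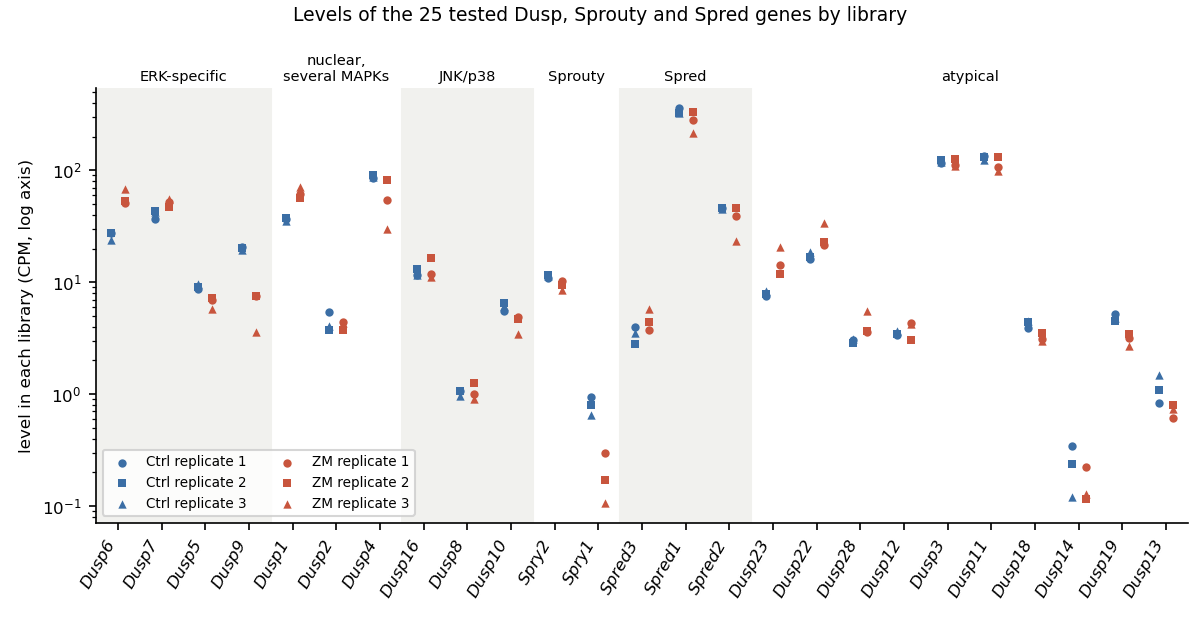
Level of each tested gene in each library, in CPM on a log axis, with Ctrl in blue and ZM in red, 1 symbol shape per replicate number, and genes grouped by class. Spred1 is the most abundant by CPM at 337 in the Ctrl mean, and the ZM points of Dusp6, Dusp1 and Dusp23 lie above, and those of Dusp9, Spry1 and Dusp19 below, all Ctrl points.

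**Figure D2:**
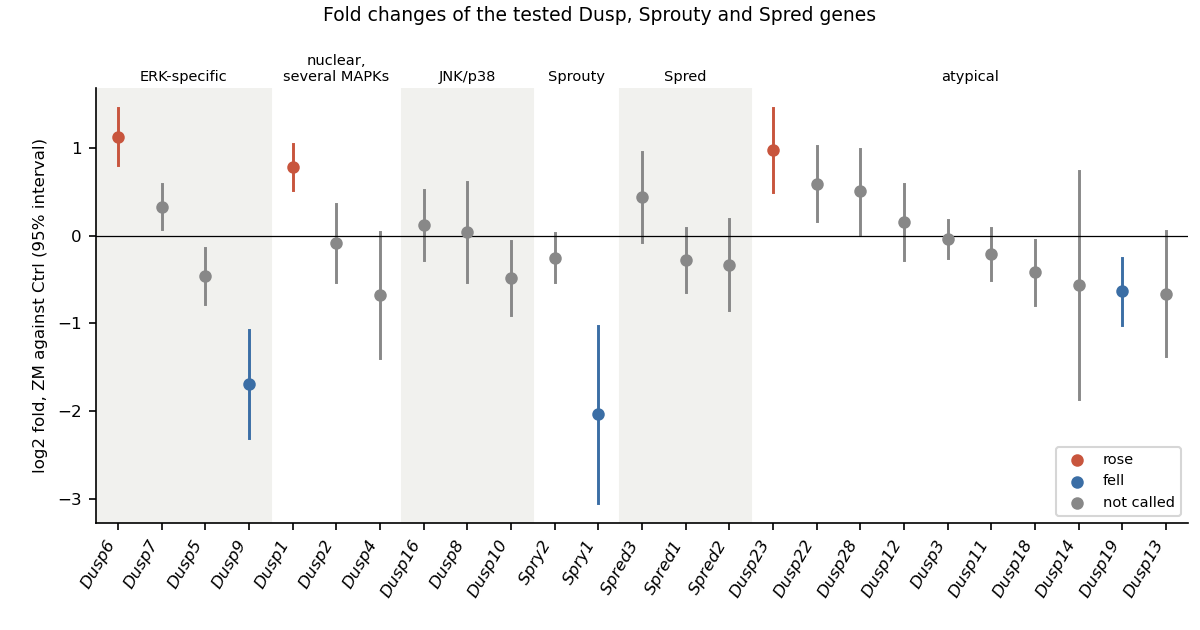
Log2 fold of ZM against Ctrl for each tested gene, with its 95% interval from the edgeR fit as a bar and called genes in colour. The estimates run from -2.04 for Spry1 to 1.13 for Dusp6, and each class but the Sprouty proteins has estimates on both sides of 0.

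The phosphatases that act mainly on ERK moved in opposite directions. Dusp6, Dusp7 and Dusp9 encode cytoplasmic phosphatases and Dusp5 a nuclear one, and Dusp9 can also act on p38. Dusp6 rose 2.19-fold with ZM and Dusp9 was 3.24-fold lower, while the smaller differences of Dusp7 (higher) and Dusp5 (lower) did not pass the test.

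Dusp6 (ENSMUSG00000019960, chromosome 10, 99263231 to 99267489, forward strand of GRCm38), a feedback phosphatase that binds and inactivates ERK, was at 27.5, 27.3 and 23.8 CPM in Ctrl replicates 1, 2 and 3 and at 51.1, 52.9 and 68.0 CPM in ZM replicates 1, 2 and 3. Every ZM library was above every Ctrl library. The means were 26.2 ± 2.07 and 57.3 ± 9.29 CPM (SD, n = 3 per group), a log2 fold of 1.13 (SE 0.14, edgeR adjusted p = 0.00548). The call was lost without Ctrl replicate 3 (log2 fold 1.06, adjusted p = 0.0513) and held without each other library.

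Dusp9 (ENSMUSG00000031383, chromosome X, 73639419 to 73643514, forward strand) was at 20.6, 20.05 and 19.5 CPM in Ctrl replicates 1, 2 and 3 and at 7.47, 7.49 and 3.60 CPM in ZM replicates 1, 2 and 3. All ZM libraries were below all Ctrl libraries. The lowest was ZM replicate 3, the library farthest from the Ctrl mean for 66.9% of all genes tested. The mean fell from 20.07 ± 0.547 to 6.19 ± 2.24 CPM (log2 fold -1.70, SE 0.26, edgeR adjusted p = 0.0115). Without Ctrl replicates 1, 2 and 3 the adjusted p was 0.0644, 0.0619 and 0.0654, and without ZM replicate 3 the gene was called at a log2 fold of -1.42.

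Dusp7 was at 36.8, 43.7 and 42.5 CPM in Ctrl replicates 1, 2 and 3 and at 52.3, 46.8 and 55.2 CPM in ZM replicates 1, 2 and 3. Its ZM libraries were all higher, but the log2 fold of 0.33 (95% interval 0.07 to 0.59) had an adjusted p of 0.0955 in edgeR, and of 0.0316 without ZM replicate 2. Dusp5 was at 8.61, 9.15 and 9.67 CPM in Ctrl replicates 1, 2 and 3 and at 6.895, 7.18 and 5.78 CPM in ZM replicates 1, 2 and 3. The groups did not overlap, and the log2 fold was -0.47 (95% interval -0.79 to -0.14, adjusted p = 0.0702). Dusp5 was called by DESeq2 (adjusted p = 0.0164), which called 21.1% of all genes tested, and by edgeR without ZM replicate 2 (0.0352) or ZM replicate 3 (0.0475). An exon of AC137853.2 overlaps Dusp5 by 547 bases on the opposite strand and had 24 counts against 2375.

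**Figure D3:**
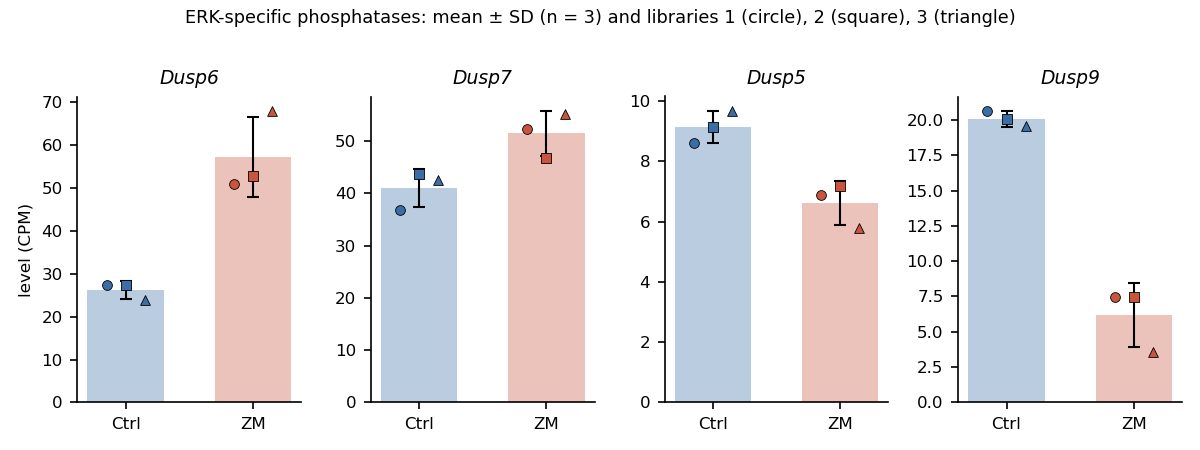
Level in CPM of the 4 ERK-specific phosphatases, with bars for the mean, error bars for the SD of 3 libraries and symbols for the libraries. Dusp6 and Dusp7 are higher in all ZM libraries, and Dusp5 and Dusp9 lower, and Dusp9 reaches 3.60 CPM in ZM replicate 3.

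Per kilobase of gene length, the scale on which genes can be compared, the make-up of the ERK-specific class shifted. Dusp9 supplied 22.45% to 24.6% of the summed CPM per kb of the class in the Ctrl libraries and 3.17% to 7.54% in the ZM libraries. Dusp6 supplied 24.3% to 28.5% in Ctrl and 43.6% to 51.9% in ZM, and Dusp7 35.6% to 40.4% in Ctrl and 38.2% to 41.7% in ZM. Dusp5 went from 11.3% to 12.5% of the class in Ctrl to 5.59% to 7.96% in ZM. The summed level of the class was 30.8, 32.8 and 31.4 CPM per kb in Ctrl replicates 1, 2 and 3 and 37.4, 36.5 and 41.8 CPM per kb in ZM replicates 1, 2 and 3, so it was higher in every ZM library.

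Of the 4 ERK-specific genes, 1 rose, 1 fell and 2 were not called, and groups overlapped for 0 of them. Among the other members, 21 were tested and 19.0% were called (2 risen, 2 fallen), and groups did not overlap for 11 (52.4%, against 42.9% of all genes tested). The median log2 fold was -0.07 in the ERK-specific class and -0.21 in the others. Among the 6 MAPK phosphatases that are not specific to ERK, 1 rose, 0 fell and 5 were not called. That was 16.7% called, against 11.0% of all genes tested. The classes are small, and no test was made of the difference between them. The other members had summed levels of 168 to 173 CPM per kb in Ctrl and of 156, 179 and 143 CPM per kb in ZM replicates 1, 2 and 3, ranges that overlapped.

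Among the inducible phosphatases of the nucleus that act on several MAPKs, Dusp1 rose, and neither Dusp4 nor Dusp2 was called. Dusp1 encodes an immediate-early phosphatase that acts mainly on p38 and JNK and limits inflammatory gene expression in macrophages. Its gene (ENSMUSG00000024190, chromosome 17, 26505590 to 26562128, reverse strand) was at 37.1, 37.9 and 35.5 CPM in Ctrl replicates 1, 2 and 3 and at 61.8, 56.5 and 71.4 CPM in ZM replicates 1, 2 and 3. All ZM libraries exceeded all Ctrl libraries. The means were 36.8 ± 1.22 and 63.2 ± 7.52 CPM, a log2 fold of 0.78 (SE 0.11, edgeR adjusted p = 0.00915). Without Ctrl replicates 1, 2 and 3 the adjusted p was 0.0644, 0.0599 and 0.0724, and the fold ranged from 0.69 to 0.86 over the libraries left out. Annotated exons of Dusp1 overlap those of Ergic1 by 11 bases on the opposite strand, and Ergic1 had 34885 counts in all against 15110 for Dusp1.

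The start regions of the risen feedback genes Dusp1 and Dusp6 are shown with that of Dusp8, which was not called, because Dusp1 and Dusp8 were the only members whose window held the cyclic AMP response element (CRE) searched for here. Each window spans 250 bases before to 50 bases after the RefSeq start on GRCm38.p6, written 5′ to 3′ on the strand of the gene. Capitals mark TGACGTCA, the CRE, and CACGTG, an E-box; the lower-case window of Dusp6 held none of the motifs searched. The windows are chr17:26508423-26508722 (reverse strand) for Dusp1, chr7:142095235-142095534 (reverse strand) for Dusp8 and chr10:99262981-99263280 (forward strand) for Dusp6. The Dusp1 window lies inside the span given above for this gene (26505590 to 26562128, from GENCODE), not at its upstream end.
Dusp1: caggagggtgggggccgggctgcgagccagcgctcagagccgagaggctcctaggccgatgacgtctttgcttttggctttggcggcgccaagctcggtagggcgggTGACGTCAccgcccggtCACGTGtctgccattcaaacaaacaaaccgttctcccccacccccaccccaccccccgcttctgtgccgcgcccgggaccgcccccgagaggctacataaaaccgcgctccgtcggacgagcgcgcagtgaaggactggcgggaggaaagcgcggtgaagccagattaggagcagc
Dusp8: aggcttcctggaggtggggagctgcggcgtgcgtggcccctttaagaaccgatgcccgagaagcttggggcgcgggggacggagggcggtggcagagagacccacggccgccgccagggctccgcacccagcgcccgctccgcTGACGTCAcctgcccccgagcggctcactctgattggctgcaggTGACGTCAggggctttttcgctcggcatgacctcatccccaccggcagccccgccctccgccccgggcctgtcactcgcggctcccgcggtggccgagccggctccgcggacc
Dusp6: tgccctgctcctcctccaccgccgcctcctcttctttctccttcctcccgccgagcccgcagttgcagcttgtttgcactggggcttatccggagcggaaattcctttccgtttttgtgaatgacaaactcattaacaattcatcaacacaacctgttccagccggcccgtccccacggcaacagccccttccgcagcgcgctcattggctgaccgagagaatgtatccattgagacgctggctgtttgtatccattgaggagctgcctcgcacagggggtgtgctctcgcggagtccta

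The CRE begins at position -143 from the start of Dusp1, ahead of an E-box at position -126, and at positions -107 and -63 from the start of Dusp8. RefSeq windows were found for 23 of the 28 genes, 26 windows in all because Dusp13 has several starts. The CRE was in 2 of these 26 windows and in 1.79% of the 32851 windows of all genes, and the E-box was in 2 (Dusp1 and Dusp2) and in 7.15% of all windows. The AP-1 motif (TGACTCA or TGAGTCA) was in 1 window, of Dusp13, and in 5.20% of all windows. The ETS motif (CCGGAAGT or ACCGGAAG, 4.95% of all windows), the NFAT-type motif GGAAAACC (1.33%) and the TATA motif (TATAAA, 13.6%) were in 0 of the 26. Both strands were searched, none of the motifs printed in capitals overlap, and a match is a description of letters in the window. The member windows were richer in G and C (median 61.1%, against 52.7% of the bases in all windows), and the shares were not adjusted for it. Dusp8 was at 1.03 ± 0.0642 CPM in Ctrl against 1.06 ± 0.182 CPM in ZM, and the 95% interval of its log2 fold ran from -0.53 to 0.61.

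Dusp4, a nuclear phosphatase of ERK and JNK, varied widely among the ZM libraries. It was at 85.1, 91.5 and 88.05 CPM in Ctrl replicates 1, 2 and 3 and at 54.4, 81.4 and 30.02 CPM in ZM replicates 1, 2 and 3. The groups did not overlap, but ZM replicate 2 lay close to Ctrl and ZM replicate 3 far below. The log2 fold of -0.68 (95% interval -1.39 to 0.04) had an adjusted p of 0.177 in edgeR. It was -1.06 without ZM replicate 2, where Dusp4 was called (adjusted p = 0.0190), and -0.38 without ZM replicate 3 (0.104). Dusp2, an inducible phosphatase of immune cells, was at 4.40 ± 0.900 CPM in Ctrl against 4.15 ± 0.386 CPM in ZM, with overlapping groups and a 95% interval of the log2 fold from -0.53 to 0.36.

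None of the 3 phosphatases that act mainly on JNK and p38 was called by edgeR or by DESeq2. In edgeR, 1 of the 3 had an unadjusted p under 0.05, as did 4994 of all 15590 genes tested. Dusp10 was at 5.49, 6.58 and 6.11 CPM in Ctrl replicates 1, 2 and 3 and at 4.93, 4.66 and 3.43 CPM in ZM replicates 1, 2 and 3. The ZM libraries were all lower, with a log2 fold of -0.48 (95% interval -0.90 to -0.06) and an adjusted p of 0.121. Dusp16, at 12.1 ± 0.944 CPM in Ctrl against 13.2 ± 2.94 CPM in ZM, had overlapping groups and a 95% interval from -0.28 to 0.52. The groups of Dusp8 overlapped as well.

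Sprouty genes were scarce, apart from Spry2. Spry1 (ENSMUSG00000037211, chromosome 3, 37639947 to 37644598, forward strand), an inhibitor of receptor tyrosine kinase signalling, had 44, 41 and 33 counts in Ctrl replicates 1, 2 and 3 and 16, 9 and 5 counts in ZM replicates 1, 2 and 3. Every ZM library was below every Ctrl library. The level fell from 0.802 ± 0.143 to 0.192 ± 0.0968 CPM (log2 fold -2.04, SE 0.43, edgeR adjusted p = 0.0301). Spry1 was above the limit of the low-count filter, 0.198 CPM, in all 3 Ctrl libraries and in 1 ZM library, so it entered the test through its Ctrl level. It was not called without Ctrl replicates 1, 2 and 3 (adjusted p = 0.145, 0.124 and 0.112), and its log2 fold ranged from -2.50 without ZM replicate 1 to -1.76 without ZM replicate 3. An annotated exon of Gm42922 overlaps Spry1 by 710 bases on the opposite strand and had 4 counts in all.

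Spry2, a feedback inhibitor of Ras and ERK signalling, was at 11.0, 11.5 and 11.4 CPM in Ctrl replicates 1, 2 and 3 and at 10.4, 9.49 and 8.56 CPM in ZM replicates 1, 2 and 3. The ZM libraries were all slightly lower, with a log2 fold of -0.25 (95% interval -0.53 to 0.03) and an adjusted p of 0.194. Spry4 had 6, 2 and 4 counts in Ctrl replicates 1, 2 and 3 and 2, 0 and 0 counts in ZM replicates 1, 2 and 3, too few to be tested, and Spry3 was not analysed here.

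The Spred genes included the most abundant member of the set and had no call in edgeR or DESeq2. In edgeR, 0 of 3 had an unadjusted p under 0.05, against 4994 of all 15590 genes tested. Spred1, whose product brings the Ras inhibitor neurofibromin to the membrane, was at 361, 326 and 325 CPM in Ctrl replicates 1, 2 and 3 and at 282, 334 and 218 CPM in ZM replicates 1, 2 and 3. The groups overlapped through ZM replicate 2, without which the log2 fold was -0.43 (adjusted p = 0.0444), against -0.28 with all libraries (adjusted p = 0.251) and -0.13 without ZM replicate 3. Spred2, a further inhibitor of Ras and ERK signalling, was at 45.6, 45.7 and 45.3 CPM in Ctrl replicates 1, 2 and 3 and at 38.8, 46.1 and 23.6 CPM in ZM replicates 1, 2 and 3. Its ZM libraries were thus in the same order as those of Spred1 and Dusp4, with replicate 2 the highest and replicate 3 the lowest. Other members had this order too, Dusp9, Dusp11, Dusp16 and Dusp19 among them. For Spred2 the 95% interval of the log2 fold was -0.85 to 0.18. Spred3 was at 3.41 ± 0.570 CPM in Ctrl against 4.63 ± 1.02 CPM in ZM, with a 95% interval from -0.07 to 0.95, and its annotated exons overlap those of Ggn by 202 bases on the opposite strand (276 counts against 1205).

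The atypical dual-specificity phosphatases lack the kinase-binding domain of the MAPK phosphatases, and many have other substrates. Of 12 genes, 10 were tested, 1 rose, 1 fell and 8 were not called, while 11.0% of all 15590 genes tested were called. Dusp23, a small phosphatase (ENSMUSG00000026544, chromosome 1, 172630764 to 172632962, reverse strand), was at 7.54, 7.84 and 8.30 CPM in Ctrl replicates 1, 2 and 3 and at 14.1, 11.8 and 20.6 CPM in ZM replicates 1, 2 and 3. All ZM libraries were higher, and ZM replicate 3 was the highest. The rise was from 7.89 ± 0.381 to 15.5 ± 4.52 CPM (log2 fold 0.97, SE 0.21, edgeR adjusted p = 0.0299). Leaving out Ctrl replicates 1, 2 and 3 gave adjusted p of 0.139, 0.125 and 0.124, and leaving out ZM replicate 1 gave 0.0707. Leaving out ZM replicate 3 kept the call at a log2 fold of 0.72.

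Dusp19, which can act on the JNK pathway, was just under the threshold. It was at 5.21, 4.50 and 4.84 CPM in Ctrl replicates 1, 2 and 3 and at 3.19, 3.46 and 2.71 CPM in ZM replicates 1, 2 and 3, without overlap. The mean fell from 4.85 ± 0.355 to 3.12 ± 0.378 CPM (log2 fold -0.63, SE 0.17, edgeR adjusted p = 0.0498). The call was lost without each Ctrl library or ZM replicate 1 (adjusted p from 0.105 to 0.203) and in 5 of 12 other alternatives, such as a block on replicate number (0.0803). Exons of Dusp19 and Nup35 overlap by 131 bases on the same strand, and Nup35 had 5109 counts against 1196, so the separate level of Dusp19 is uncertain.

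Among the atypical genes that were not called, Dusp22, a regulator of JNK signalling, came nearest, at 16.3, 16.9 and 18.5 CPM in Ctrl replicates 1, 2 and 3 and at 21.4, 22.9 and 33.7 CPM in ZM replicates 1, 2 and 3. All ZM libraries were higher (log2 fold 0.59, 95% interval 0.17 to 1.02, adjusted p = 0.0770). DESeq2 called it (adjusted p = 0.0289), and so did edgeR without ZM replicate 2 (0.0376) or ZM replicate 3 (0.0276), the latter with a log2 fold of 0.36. Dusp28 was higher in all ZM libraries as well, at 3.00 ± 0.140 and 4.25 ± 1.07 CPM (adjusted p = 0.148), and Dusp18 lower in all of them, at 4.29 ± 0.339 and 3.20 ± 0.260 CPM (adjusted p = 0.120).

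The abundant atypical genes showed small differences with narrow intervals. Dusp3, which dephosphorylates ERK and JNK, was at 120 ± 2.79 CPM in Ctrl against 117 ± 9.53 CPM in ZM, with a 95% interval of the log2 fold from -0.26 to 0.18. Dusp11, a phosphatase that acts on RNA ends, was at 130 ± 5.99 and 113 ± 18.3 CPM, with an interval from -0.50 to 0.09, and was called without ZM replicate 2 alone (log2 fold -0.34, adjusted p = 0.0286). Dusp12, at 3.48 ± 0.178 and 3.87 ± 0.690 CPM, had overlapping groups, and Gm9929, with 289 counts against 1108, overlaps its exons by 891 bases on the opposite strand. Dusp13 was at 1.14 ± 0.332 and 0.719 ± 0.0974 CPM, with ZM libraries all lower (adjusted p = 0.180), and Dusp14 was at 0.233 ± 0.112 and 0.155 ± 0.0590 CPM with overlapping groups. Dusp15 had 0, 2 and 2 counts in Ctrl replicates 1, 2 and 3 and 0, 0 and 4 counts in ZM replicates 1, 2 and 3, and Dusp27 had 2, 6 and 0 counts and 2, 12 and 0 counts in the same order, so neither was tested.

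Compared per kilobase of gene length, Spred1 headed the tested members in Ctrl at 49.7 CPM per kb, followed by Dusp4 (32.2), Dusp3 (25.6), Dusp11 (14.8), Dusp7 (12.2) and Dusp1 (11.1). Dusp6 was eighth at 8.37 CPM per kb and Dusp9 ninth at 7.38 CPM per kb. In ZM the level of Dusp6 was 18.3 CPM per kb and that of Dusp9 2.27 CPM per kb, and Dusp1 (19.1) and Dusp4 (20.2) stood close to Dusp6. The sparse end of the order was formed by Spry1 (0.276 in Ctrl), Dusp8 (0.211) and Dusp14 (0.120 CPM per kb).

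Among other genes of MAPK signalling, the growth factor target genes and the upstream receptors held a larger share of called genes than the kinase cascades, a difference that was not tested. Of 28 genes of the ERK cascade, 5 rose, 1 fell and 22 were not called (21.4%, against 11.0% of all genes tested). Map2k1 and Map2k2, the kinases that activate ERK, had adjusted p of 0.326 and 0.774. Mapk3, which encodes ERK1, was at 126, 131 and 138 CPM in Ctrl replicates 1, 2 and 3 and at 223, 177 and 349 CPM in ZM replicates 1, 2 and 3, and rose (log2 fold 0.93, edgeR adjusted p = 0.0440). The scaffold Ksr1 rose from 1.81 ± 0.275 to 3.87 ± 0.415 CPM (adjusted p = 0.0177), and Rps6ka2, a kinase that ERK activates, fell from 35.04 ± 2.91 to 19.3 ± 3.53 CPM (adjusted p = 0.0174).

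Of 39 tested growth factor target genes outside the set, 13 rose, 4 fell and 22 were not called (43.6%), with a median log2 fold of 0.33. Etv5, an ETS factor whose transcription follows ERK activity in many cells as that of Dusp6 does, was at 17.6, 19.3 and 16.7 CPM in Ctrl replicates 1, 2 and 3 and at 34.7, 43.3 and 32.9 CPM in ZM replicates 1, 2 and 3. It was higher in every ZM library and rose by a log2 fold of 1.05 (SE 0.13, edgeR adjusted p = 0.00654). Egr3, an early growth response factor, rose from 0.788 ± 0.325 to 3.65 ± 0.603 CPM (adjusted p = 0.0105), and Plaur, the urokinase receptor, from 99.2 ± 5.19 to 155 ± 4.76 CPM (adjusted p = 0.00772). Lif, a cytokine, fell from 4.21 ± 0.363 to 0.166 ± 0.158 CPM (adjusted p = 0.00443), having entered the test through its Ctrl level, with 1 ZM library over the filter. The AP-1 subunit Fosl2 fell from 180 ± 8.85 to 38.9 ± 8.92 CPM (adjusted p = 0.00153). Egr1 was at 7.83 ± 1.85 and 12.6 ± 1.21 CPM (adjusted p = 0.0584), and Fos, Ccnd1 and Myc had overlapping groups. ZM replicate 3 was the lowest library for Fos, Ccnd1 and Myc. Without it edgeR called Myc higher (log2 fold 0.38, adjusted p = 0.00625), in a fit that called 19.5% of all genes tested. Ccnd1 (log2 fold 0.34) and Fos (-0.09) were not called there.

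Of 29 tested genes of the p38 and JNK cascades, 6 rose, 0 fell and 23 were not called (20.7%). Mapk14, which encodes p38 alpha, rose from 163 ± 3.43 to 208 ± 6.75 CPM (adjusted p = 0.0376), and its substrate kinase gene Mapkapk2 from 267 ± 9.98 to 389 ± 43.8 CPM (adjusted p = 0.0243). Gadd45a, a stress gene, rose from 10.2 ± 0.408 to 24.0 ± 8.01 CPM (adjusted p = 0.0184). Of 23 tested brakes on Ras and ERK outside the set, 2 rose, 1 fell and 20 were not called (13.0%, near the 11.0% of all genes tested). The risen genes were Dok2, an adaptor that recruits a Ras inhibitor, with a log2 fold of 0.39 (adjusted p = 0.0319), and Ptpn6, a tyrosine phosphatase, with 0.46 (adjusted p = 0.0273). The fallen gene was Cblb, a ubiquitin ligase of receptors, which went from 56.9 ± 1.86 to 27.2 ± 3.21 CPM (adjusted p = 0.00392).

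Of 21 tested upstream receptors, 3 rose, 8 fell and 10 were not called (52.4%). Kdr, which encodes a VEGF receptor, fell from 46.3 ± 5.43 to 14.2 ± 6.87 CPM (adjusted p = 0.0274), Egfr from 20.4 ± 0.655 to 13.1 ± 2.38 CPM (adjusted p = 0.0376), and Fgfr1, an FGF receptor, from 61.3 ± 2.18 to 18.2 ± 8.24 CPM (adjusted p = 0.0214). Among the risen receptors, Csf3r, the G-CSF receptor, went from 7.25 ± 0.281 to 32.03 ± 21.8 CPM (adjusted p = 0.0248) and Mertk, a receptor for the uptake of dying cells, from 17.1 ± 1.80 to 44.2 ± 19.5 CPM (adjusted p = 0.0280), both highest in ZM replicate 3. For Csf1r, which encodes the M-CSF receptor, the levels were 1306 ± 32.8 and 1840 ± 447 CPM (adjusted p = 0.0920), and for Tnfrsf11a, the RANKL receptor, 160 ± 3.09 and 109 ± 21.1 CPM (adjusted p = 0.050). Of the 28 called genes that the rule for named genes took from these lists and from the osteoclast markers, Cblb, Fosl2, Lif, Mst1r, Acp5, Ctsk and Nfatc1 kept the call without any single library. The other 21 lost it without at least 1 library, with a highest adjusted p over the libraries left out of 0.0586 for Etv5 to 0.184 for Mapk14.

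**Figure D4:**
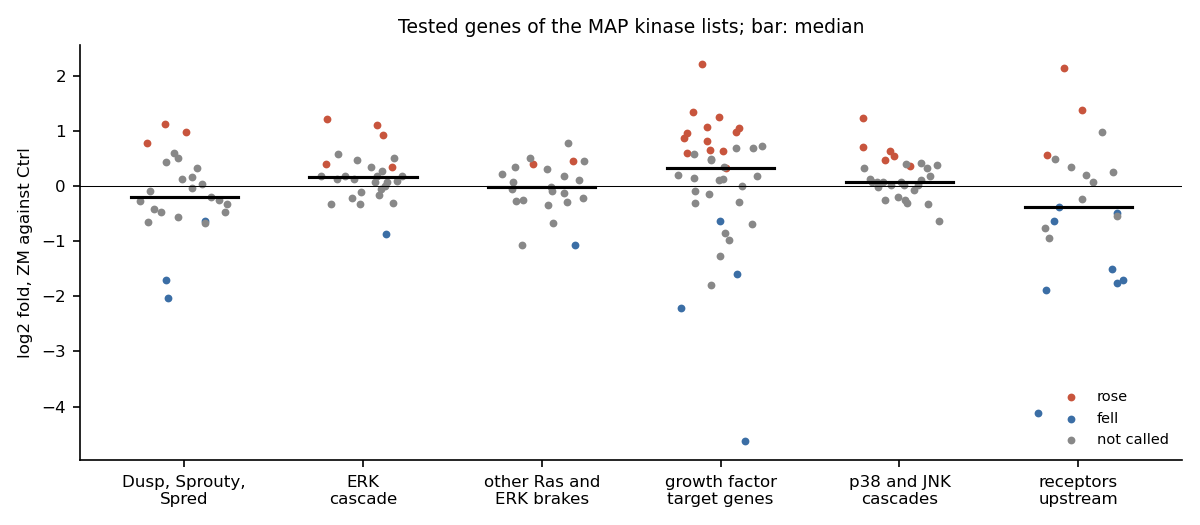
Log2 fold of ZM against Ctrl for each tested gene of the set and of the 5 other MAPK lists, with called genes in colour and the median of a list as a bar. The medians run from -0.38 for the receptors to 0.33 for the growth factor target genes, and the set of Dusp, Sprouty and Spred genes, at -0.21, holds both the strong rise of Dusp6 and the falls of Dusp9 and Spry1.

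Calls of the 6 called members depended on the libraries used. With each library left out in turn, the log2 fold ranged from 0.99 to 1.21 for Dusp6. It ranged from -1.86 to -1.42 for Dusp9 and from -0.71 to -0.54 for Dusp19. Groups overlapped for none of the 6, so leaving out a single library could not reverse their sign. Without Ctrl replicates 1 or 2 Dusp6 alone was called, and without Ctrl replicate 3 no member was, by edgeR's adjusted p, while calls over all genes tested went from 1711 to 180, 224 and 148. Without ZM replicate 1, Dusp19 and Dusp23 lost their calls. Without ZM replicate 2, 6 further members were called, which were Dusp4, Dusp5, Dusp7, Dusp11, Dusp22 and Spred1, in a fit that called 31.4% of all genes tested. The SD was larger in ZM than in Ctrl for 20 of the 25 tested members (80.0%) and for 81.7% of all genes tested.

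**Figure D5:**
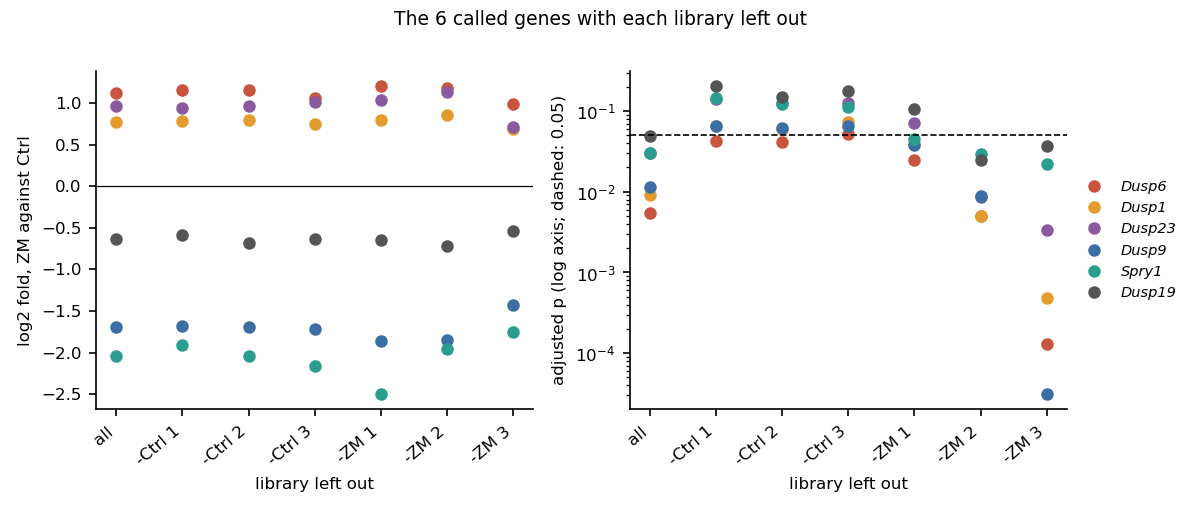
Log2 fold (left) and adjusted p on a log axis (right) of the 6 called genes with all libraries and with each library left out, with the threshold of 0.05 dashed. The folds keep their side of 0, as they must where groups do not overlap, and without Ctrl replicate 3 all 6 adjusted p lie above the threshold.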

How the data were processed

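Libraries of mRNA from 3 Ctrl and 3 ZM cultures were grouped by their titles, and all 12 value columns were matched to samples by name. The deposited counts are whole numbers per gene that the authors had not normalized, and the deposited FPKM values, made by the authors from those counts, served only to recover gene lengths. The tools named by the authors, per the submitters' processing notes, are featureCounts 2.0.3, HISAT2 2.2.1, DESeq2 and Subread, with mm10 as build and no role stated. Not given in the sources used here are the annotation, strand setting and filters. Among counts of 1 to 20, 72.7% to 76.4% were even, as when both mates of a pair are counted.

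The test was edgeR 4.0.16 under R 4.3.3 (filterByExpr with the group, TMM, quasi-likelihood F test, group alone), with Benjamini-Hochberg adjustment over 15590 genes and a threshold of 0.05. Levels are CPM on the TMM-scaled library size, SE is the size of the log2 fold over the square root of F, and intervals use the total degrees of freedom of the fit. The filter asked for about 0.198 CPM, which is 10 counts, in 3 libraries. Positions and exon overlaps come from GENCODE M21 (GRCm38, the assembly of mm10), joined by gene identifier, and start regions from RefSeq. The fit was tested on simulated data, in which 67% of 100 genes changed by a log2 fold of 1 were recovered. For 100 genes changed by a log2 fold of 2 it was 98%, and 5.71% of the calls were false. The simulation gave each gene the same dispersion in both groups, whereas the SD was larger in ZM for 81.7% of all genes tested.

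Named genes were all members, up to 5 called genes with the smallest adjusted p from each other MAPK list, and a fixed set of pathway genes and osteoclast markers. A gene that this rule names is not reported here. Members, lists and tests were chosen with earlier results of these data known. Alternatives were RLE, upper-quartile and no factors, a filter of at least 1 CPM everywhere and none, limma-voom (limma 3.58.1), DESeq2 1.42.0, robust estimation, a block on replicate number, a loess offset on gene length (span 0.5) with and without the block, counts divided by 2, and each library left out.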

Additional observations from a re-analysis of the deposited data

How the results depend on the processing

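Under every alternative the 6 called members kept their direction, and for each of the 25 tested members a value past the threshold never changed sign. Groups of the 6 did not overlap, so leaving out single libraries could not change their direction. Under the alternatives that kept all libraries, 5 to 8 members were called: Dusp6, Dusp1, Dusp9, Dusp23 and, where it was tested, Spry1 were called under each of them, Dusp19 was not under 5 of 12, and the additions were Dusp5 and Dusp22 under DESeq2 and Dusp22 under the length offset with the block. Spry1 was not tested when at least 1 CPM was asked for in all libraries. Leaving out single libraries gave 0 to 12 called members (0 to 5 risen, 0 to 7 fallen), 148 to 5023 genes over all those tested (31 to 2571 risen, 117 to 2452 fallen) and 4 to 75 genes of the other MAPK lists (0 to 46 risen, 4 to 29 fallen), against 6, 1711 and 43 with all libraries. DESeq2 called 3295 genes (1712 risen, 1583 fallen) and 65 list genes (44 risen). The length offset gave 1413 risen genes, and 1306 with the replicate block. The causes were not tested.

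With the replicate number as a block, 5 members and 1679 genes were called. Same-numbered libraries deviated from their group means with correlations of 0.031, 0.047 and 0.107 for numbers 1, 2 and 3, so the numbers were not taken to pair the samples, and not every library correlated best with its own number. Precision is limited by 3 libraries a group and, for Spry1 with 5 to 16 counts in ZM, by depth.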
